A study of Mus musculus with 4 samples.

Results

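The transcripts described here are those of 9 erythroid genes in mouse autopod, the end of the limb bud from which hand and foot develop. They are the embryonic globin genes Hbb-bh1, Hba-x and Hbb-y and the red cell genes Alas2, Slc4a1, Car2, Gata1, Klf1 and Epor. Every probe set that the platform annotation assigns to exactly 1 of these genes was taken, which gave 15 of the 45101 probe sets on the array and 9 of the 18193 genes with such a probe set. The genes were listed by name and not by a threshold on a measured value, though earlier results of these data were known when the list was made. Pieces of autopod that match the region of Hoxd13 expression, from fore- and hindlimb buds of C57BL/6 embryos at stage E11.25 (days of embryonic development), were profiled on 4 Affymetrix arrays. Hox13dKO (2 samples) stands for double homozygotes of Hoxa13-/- and of HoxDdel, which deletes Hoxd11, Hoxd12 and Hoxd13 at once, and the other 2 samples are wild type. No tissue-specific driver is named for either allele, and replicates are titled as biological, with no count of embryos or amount of blood stated.

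Red blood cells of the embryo at this stage are primitive erythroid cells. They form in the yolk sac, enter the circulation still nucleated and mature there, so that any piece of vascularised embryonic tissue carries them. Their hemoglobin includes embryonic chains: Hba-x encodes the alpha-like zeta chain, and Hbb-bh1 and Hbb-y encode beta-like chains. GATA1 and KLF1 are the transcription factors that switch on globin, heme and membrane genes in these cells, and EPOR, the erythropoietin receptor, keeps their precursors alive. Alas2 encodes the erythroid enzyme of the first step of heme synthesis, Slc4a1 band 3, the anion exchanger of the red cell membrane, and Car2 carbonic anhydrase 2, which converts carbon dioxide to bicarbonate. Car2 is also expressed outside the red cell lineage.

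GATA1 binds the letters AGATAA or TGATAA, with G in place of the last A also searched (AGATAG and TGATAG), and KLF1 binds CACCC, and the sequence before the start of the members shows which of them carry these letters. Promoters from RefSeq (assembly GRCm38.p6) were found for 6 of the 9 members: Hba-x, Hbb-y, Alas2, Gata1, Klf1 and Epor. The 250 bases before each start were searched on both strands for the 4 GATA spellings, for CACCC and for CCAAT, and no matches overlapped. The 4 windows shown belong to globin genes and to the heme and transcription factor genes whose signals are described next; they are given on the strand of the gene, 5′ to 3′, and capitals mark the matches.
Hba-x, chr11:32276350-32276599, plus strand: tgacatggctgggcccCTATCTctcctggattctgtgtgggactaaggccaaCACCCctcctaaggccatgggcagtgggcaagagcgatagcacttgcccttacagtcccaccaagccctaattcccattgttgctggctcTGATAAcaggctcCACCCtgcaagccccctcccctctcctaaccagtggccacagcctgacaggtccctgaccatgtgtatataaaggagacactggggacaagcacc
Hbb-y, chr7:103853208-103853457, minus strand: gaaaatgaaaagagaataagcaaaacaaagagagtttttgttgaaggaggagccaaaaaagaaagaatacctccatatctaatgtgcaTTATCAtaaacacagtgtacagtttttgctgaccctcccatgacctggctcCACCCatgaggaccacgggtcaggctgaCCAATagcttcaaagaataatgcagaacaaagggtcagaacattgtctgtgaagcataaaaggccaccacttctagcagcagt
Alas2, chrX:150547167-150547416, plus strand: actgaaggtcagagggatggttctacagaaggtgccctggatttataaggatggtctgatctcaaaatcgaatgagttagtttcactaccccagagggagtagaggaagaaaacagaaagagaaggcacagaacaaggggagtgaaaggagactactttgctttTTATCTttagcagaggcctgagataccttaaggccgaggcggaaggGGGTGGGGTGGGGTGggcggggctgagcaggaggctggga
Klf1, chr8:84901732-84901981, plus strand: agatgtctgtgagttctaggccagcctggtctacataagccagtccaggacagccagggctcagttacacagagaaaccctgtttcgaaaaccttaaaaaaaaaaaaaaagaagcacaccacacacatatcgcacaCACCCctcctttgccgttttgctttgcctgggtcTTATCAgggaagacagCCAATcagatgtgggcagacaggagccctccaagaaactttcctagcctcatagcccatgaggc
A GATA match lay in 5 of the 6 member windows (Gata1 had none), against 26.5% of 32851 promoter windows of the same length. CACCC lay in 6 of 6, against 52.0% of all windows, and both kinds together in 5 of 6, against 11.8%. CCAAT lay in 2, Hbb-y and Klf1, against 33.8%. In Hba-x a TGATAA match starts 108 bases before the start and is followed by CACCC 95 bases before it. In Hbb-y the CACCC match starts 111 bases and the CCAAT match 83 bases before the start. Alas2 holds CACCC on the opposite strand, read as GGGTG, 3 times in a row between 40 and 26 bases before the start. These are letter matches and not measured binding.

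The targeted genes bore out the labels: Hoxa13 read 52.4 and 58.0 in Hox13dKO against 842 and 1463 signal units in wild type, and the brighter Hoxd13 probe set 5.79 and 9.58 in Hox13dKO against 14540 and 16117 in wild type. All values are MAS5 signals, a background-subtracted brightness per probe set on a linear scale, scaled by the authors to a trimmed mean of 500 on each array. The limb mesenchyme markers Prrx1 (Hox13dKO 11938 and 9125, wild type 7952 and 7008) and Msx1 (2588 and 2341, against 3490 and 2821) were bright on all 4 arrays. Wild type replicate 1 stood apart in RNA quality by 1 measure: its ratio of 5' to 3' actin signal was 0.473, against 0.728 and 0.771 in Hox13dKO and 0.764 in wild type replicate 2. The same ratio for Gapdh was 1.17 and 1.16 in Hox13dKO against 1.23 and 1.25 in wild type.

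The embryonic globins were among the brightest signals of every array and differed by at most 1.27-fold between Hox13dKO and wild type. Hbb-bh1 read 34839 and 37509 signal units in Hox13dKO, against 24573 and 33543 in wild type, by its brightest probe set, a log2 difference of 0.33 ± 0.17 (SE, Hox13dKO minus wild type; limma adjusted p = 0.872). Both Hox13dKO arrays lay above both wild-type arrays, but Hox13dKO replicate 1 exceeded wild type replicate 2 by little. A further Hbb-bh1 probe set gave 33154 and 35898 against 23582 and 31352 (0.34 ± 0.16), again without overlap. The third, with 25815 and 28296 against 20361 and 28070 (0.18 ± 0.17), had wild type replicate 2 above Hox13dKO replicate 1, so the 3 probe sets of this gene do not give the same separation.

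Hba-x, the only alpha-like chain among the members, read 25787 and 34290 in Hox13dKO against 24741 and 31654 in wild type, a log2 difference of 0.09 ± 0.18 (adjusted p = 0.979). The groups overlapped, with both replicate 2 arrays above both replicate 1 arrays. Hbb-y, the other beta-like chain, read 28934 and 33369 against 25426 and 32066 by its brightest probe set (0.12 ± 0.16; adjusted p = 0.968). Its other probe sets read 28328 and 33869 against 24963 and 32850 (0.11 ± 0.17) and 24017 and 30971 against 22623 and 30890 (0.05 ± 0.19). All 3 overlapped in the same way as Hba-x.

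Over the 7 globin probe sets the log2 differences ranged from 0.05 to 0.34, with none past an adjusted p of 0.05. Of the 7, 2 had both Hox13dKO arrays above both wild-type arrays and 0 had both below, beside 16.3% above and 18.3% below over all probe sets tested, so the count is near the background. By signal, though not by rank within the array, all 7 were highest in Hox13dKO replicate 2 and lowest in wild type replicate 1. The sign of the smaller differences rested on single arrays: without wild type replicate 1 the Hba-x difference was -0.09 and the 3 of Hbb-y ranged from -0.18 to -0.05, and without Hox13dKO replicate 2 Hba-x was at -0.12. Each array held the globin probe sets between rank 8 and rank 224 from the top of its 45101 signals. Saturation flags were not analysed here, so whether the brightest signals still scale with RNA was not tested. Hbb-bh1 and Hbb-y are close relatives, and 3 of their probe sets are of a design that may cross-hybridise (names ending in _x_at), so signal shared between the beta-like genes cannot be told apart.

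**Figure D1:**
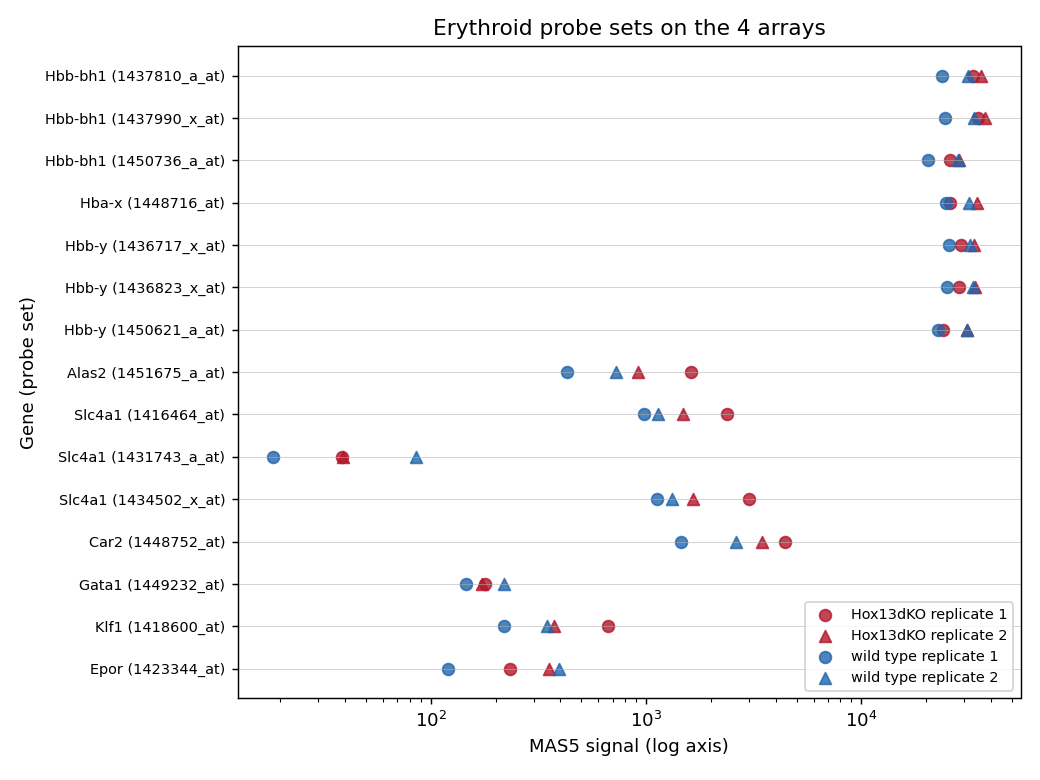
MAS5 signal (log axis) of the 15 erythroid probe sets, 1 row each, on 2 Hox13dKO arrays (red) and 2 wild-type arrays (blue), with circles for replicate 1 and triangles for replicate 2. Each point is 1 array. The 7 globin probe sets crowd between 20361 and 37509, while Alas2, Slc4a1 (except its dim probe set), Car2 and Klf1 have both red points right of both blue points.

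The heme enzyme, membrane and gas exchange genes read about 1.8- to 2.2-fold higher in Hox13dKO, without overlap of the arrays, yet none passed the threshold. Alas2 had 1621 and 917 signal units in Hox13dKO against 427 and 726 in wild type. Both Hox13dKO arrays lay above both wild-type arrays, with Hox13dKO replicate 1 far above the rest. The log2 difference was 1.13 ± 0.32 (2.19-fold; adjusted p = 0.430). The arrays within a group differed by nearly as much, 1.77-fold between the Hox13dKO arrays and 1.70-fold between the wild-type arrays.

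Slc4a1 read 3010 and 1655 in Hox13dKO against 1125 and 1319 in wild type by its brightest probe set, a log2 difference of 0.87 ± 0.26 (1.83-fold; adjusted p = 0.488). A further probe set gave 2369 and 1490 against 977 and 1134 (0.84 ± 0.23, 1.79-fold; adjusted p = 0.370), so the pair agreed in order and in size. The third was too dim to be tested, at 38.6 and 38.9 in Hox13dKO against 18.5 and 85.7 in wild type, with wild type replicate 2 the highest. Car2 read 4405 and 3437 against 1456 and 2609, with a log2 difference of 0.997 ± 0.26 (2.0-fold; adjusted p = 0.336, the lowest among the members). Its Hox13dKO arrays differed by 1.28-fold and its wild-type arrays by 1.79-fold.

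Of the members of transcriptional control and signalling, Klf1 alone had arrays without overlap. It read 664 and 372 in Hox13dKO against 218 and 347 in wild type, a log2 difference of 0.85 ± 0.34 (1.81-fold; adjusted p = 0.740). Hox13dKO replicate 2 and wild type replicate 2 were close. Gata1 was dim, at 178 and 172 against 145 and 219, with a log2 difference of -0.02 ± 0.34 (adjusted p = 0.997), and wild type replicate 2 was the highest array. Epor read 234 and 354 against 121 and 395, a difference of 0.40 ± 0.52 (adjusted p = 0.968) that turned to -0.46 without wild type replicate 1. Its wild-type arrays, 3.28-fold apart, were the lowest and the highest of the 4.

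Of the 14 member probe sets bright enough to be tested, 0 passed an adjusted p of 0.05, where 56 of all 27022 tested did, 0.207% (31 higher, 0.115%, and 25 lower, 0.0925%). At an unadjusted p under 0.05, 5 member probe sets were higher and 0 lower, namely those of Alas2, Car2, Klf1 and 2 of Slc4a1; over all probe sets 6.26% reached that level, 3.80% higher. Both Hox13dKO arrays lay above both wild-type arrays for 7 of the 14, against 16.3% of all tested, and below for 0, against 18.3%. These shares are not counts of independent features, since several probe sets read the same gene and most members are genes of 1 cell lineage. By brightest probe set the median log2 difference of the 9 genes was 0.40 (0.11 with wild type replicate 1 left out, 0.99 with wild type replicate 2 left out), beside -0.03 over all 13072 genes tested, and 8 of 9 were positive, beside 45.8%. Without wild type replicate 1, 5 of 9 were positive.

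Most member probe sets shared either their order over the 4 arrays or their highest array. Alas2, both tested probe sets of Slc4a1, Car2 and Klf1 had the order Hox13dKO replicate 1, Hox13dKO replicate 2, wild type replicate 2, wild type replicate 1 from the highest, which 3.76% of all probe sets tested had. By signal the globins instead shared Hox13dKO replicate 2 as the highest array. Second came Hox13dKO replicate 1 in the 2 Hbb-bh1 probe sets without overlap, and wild type replicate 2 in the other globin probe sets. The top signal of any probe set was also larger on the replicate 2 arrays, at 51324 in Hox13dKO and 45321 in wild type. On the replicate 1 arrays it was 37842 and 36414. Ranks within each array gave another order. By brightest probe set, Hbb-bh1 ranked 8 and 49 in Hox13dKO against 120 and 61 in wild type, the order of Alas2. Hbb-y ranked 57 and 100 against 100 and 89, and Hba-x 125 and 88 against 114 and 96. Gata1, Epor and the dim Slc4a1 probe set had neither the order of Alas2 nor Hox13dKO replicate 2 first, and were highest in wild type replicate 2. Shared by all was the array with the lowest signal: wild type replicate 1 was lowest in 15 of the 15 member probe sets, against 29.5% of all probe sets tested. By rank within the array, Hba-x was instead lowest in Hox13dKO replicate 1. Wild type replicate 1 is the array with the low actin ratio, and the part of RNA quality in the result was not tested. Without it the differences were smaller, at 0.75 for Alas2, 0.76 and 0.73 for Slc4a1, 0.58 for Car2 and 0.52 for Klf1, and none passed (adjusted p from 0.176 to 0.782).

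The other wild-type array and the Hox13dKO arrays mattered as well. Leaving out an array leaves its group with 1, which the fit assumes to vary like the other group. P-values of such fits thus rest on the spread between 2 arrays. With wild type replicate 2 left out, the differences were 1.51 for Alas2, 0.99 and 0.94 for Slc4a1, 1.42 for Car2 and 1.19 for Klf1. The wild-type array left in that fit was replicate 1, which had the low actin ratio and the lowest signal of every member probe set. Without Hox13dKO replicate 1, the differences were 0.72 for Alas2, 0.44 and 0.50 for Slc4a1, 0.82 for Car2 and 0.43 for Klf1. Without Hox13dKO replicate 2 they were 1.54 for Alas2, 1.31 and 1.17 for Slc4a1, 1.18 for Car2 and 1.27 for Klf1, and none passed in either case. The size of these differences thus depended on which array was left out. Their sign could not turn, since both Hox13dKO arrays lay above both wild-type arrays for the tested probe sets of these 4 genes.

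**Figure D2:**
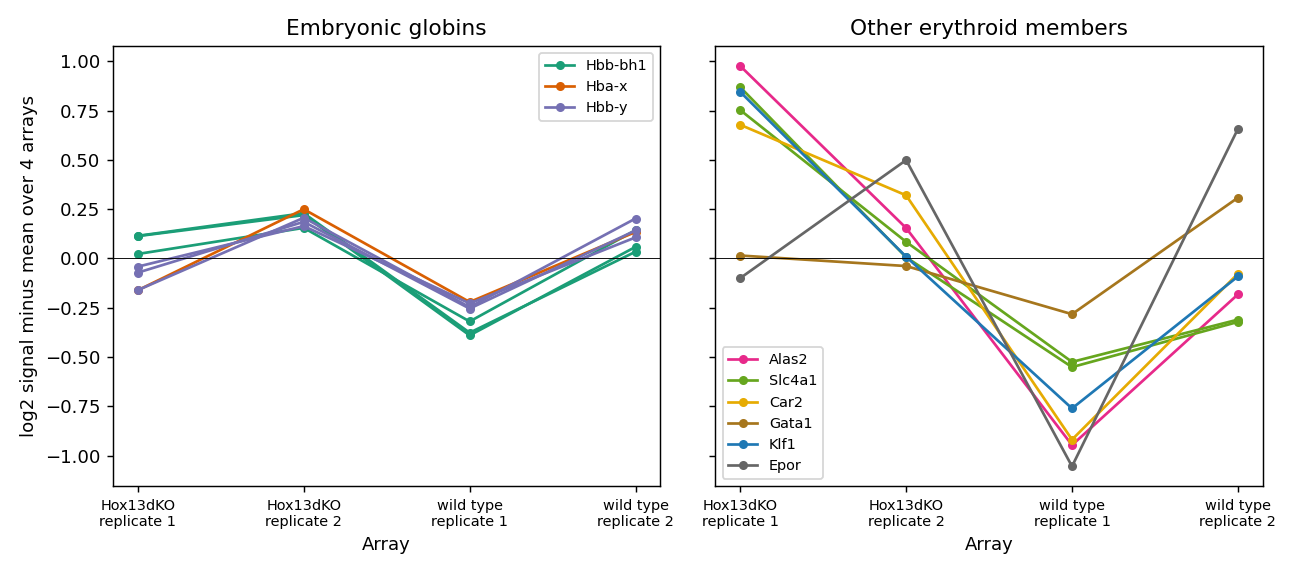
Log2 signal of each tested member probe set minus its mean over the 4 arrays (y axis), by array (x axis), with globins on the left panel and the other members on the right. Lines join the arrays of 1 probe set. Globins stay within a narrow band and peak in Hox13dKO replicate 2, while Alas2, Slc4a1, Car2 and Klf1 peak in Hox13dKO replicate 1. Every line is lowest at wild type replicate 1. By rank within the array, not drawn here, the brightest Hbb-bh1 and Hbb-y probe sets were highest in Hox13dKO replicate 1.

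The genes with the most similar pattern to the globins over the 4 arrays were Col9a2, Syncrip, Git2, Foxp1 and Odf2. Likeness was the root mean square distance between log2 profiles centred on their means, against the mean profile of the 3 globins by brightest probe set, and ran from 0.011 for Col9a2 to 0.020 for Odf2. Syncrip, for example, read 2168 and 2513 in Hox13dKO against 1828 and 2353 in wild type. Col9a2 was dim, at 121 and 142 against 102 and 131. These were the closest of all tested probe sets with 1 gene symbol, on profiles of only 4 points. None differed between the groups past the threshold (limma adjusted p from 0.947 to 0.978). Whether such likeness exceeds that among unrelated genes was not tested.

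Of 16 further genes of heme and iron handling that were measured, 0 passed in either direction. Their median log2 difference was 0.17, 13 were positive, and both Hox13dKO arrays were above both wild-type arrays for 6 and below for 1. Over all genes tested 45.8% were positive, 17.1% were above in this sense and 20.1% below. Slc25a37, mitoferrin, which brings iron into the mitochondria of erythroid cells, read 2758 and 1403 in Hox13dKO against 1036 and 1180 in wild type (0.83 ± 0.28; adjusted p = 0.608; 0.34 to 1.32 with an array left out). Fech, ferrochelatase, which inserts iron into heme, read 2117 and 1617 against 1287 and 1518 (0.40 ± 0.18), and Ppox, an earlier enzyme of the pathway, 687 and 547 against 424 and 479 (0.44 ± 0.21). All 3 were free of overlap and highest in Hox13dKO replicate 1, as Alas2 was. Fth1, the ferritin heavy chain, which all cells use, differed by 0.28 ± 0.13.

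Red cell membrane and enzyme genes likewise had 0 of 18 past the threshold, a median of 0.25 and 15 positive differences, with both Hox13dKO arrays above both wild-type arrays for 7 (17.1% of all genes) and below for 1 (20.1%). Rhag, the Rh-associated glycoprotein, read 553 and 294 in Hox13dKO against 218 and 242 in wild type (0.81 ± 0.33; adjusted p = 0.741; 0.36 to 1.27 with an array left out). Ermap, an erythroid membrane protein, read 523 and 321 against 224 and 247 (0.80 ± 0.29; 0.45 to 1.15). Both repeat the array order of Slc4a1, high in Hox13dKO replicate 1. Epb42, which anchors band 3 to the membrane skeleton, read 191 and 196 against 128 and 97.7 (0.79 ± 0.35), and Slc14a1, the urea transporter of red cells, 169 and 186 against 72.2 and 129 (0.87 ± 0.41), with the Hox13dKO arrays close together.

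Other globins and their partners had 3 genes measured. Hemgn, hemogen, a nuclear protein of erythroid cells, read 1666 and 1171 in Hox13dKO against 713 and 820 in wild type (0.87 ± 0.20; adjusted p = 0.259), in the same array order as Alas2. The adult globin probe sets that were tested read near the dim end. Hba-a2 was at 63.3 and 45.3 against 76.2 and 136 (-0.93 ± 0.54) and Hbb-b2 at 83.7 and 69.3 against 88.9 and 139 (-0.55 ± 0.46). Both were thus lower in Hox13dKO without passing (adjusted p = 0.897 and 0.937). Probe sets assigned to several globin genes were not used here.

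Transcription factors and cofactors of erythroid cells gave the 1 call in these lists. Lmo2, an adaptor that joins GATA1 and TAL1 in red cell precursors and is also expressed in limb mesenchyme, read 864 and 852 in Hox13dKO against 2368 and 1923 in wild type. It fell by 1.31 ± 0.16 on the log2 scale (2.49-fold lower; adjusted p = 0.0343), and lost the call in 5 of 16 alternative settings: no filter (adjusted p = 0.321), eBayes without the intensity trend (0.591), median centring (0.0727), and without Hox13dKO replicate 1 (0.202) or replicate 2 (0.228). Its direction was opposite to that of Alas2 and Slc4a1. Of 17 measured, 0 were higher and 1 was lower past the threshold, beside 0.306% of all genes (40 of 13072), with a median of 0.12. Both Hox13dKO arrays were above both wild-type arrays for 3 and below for 5, beside 17.1% and 20.1% of all genes. Nfe2, an erythroid and platelet factor, read 263 and 179 against 140 and 114 (0.78 ± 0.35), Bcl11a, a repressor of embryonic globins, 2009 and 1988 against 3244 and 3620 (-0.78 ± 0.13; adjusted p = 0.0989, past the threshold in 4 of 16 alternative settings), and Cbfa2t3, a corepressor, 221 and 147 against 266 and 334 (-0.72 ± 0.32).

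In erythropoietin and Kit signalling 0 of 10 measured genes passed, with a median of -0.04. Kit, the receptor of early blood, germ and pigment cells, read 288 and 332 in Hox13dKO against 611 and 618 in wild type (-0.99 ± 0.21; adjusted p = 0.192). Its groups did not overlap. Its ligand gene Kitl differed by 0.26 ± 0.20, Stat5a, a factor downstream of EPOR, by -0.81 ± 0.59 (-1.59 to -0.04 with an array left out) with overlap, and Pim1, a kinase gene that STAT5 activates, by 0.17 ± 0.19.

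**Figure D3:**
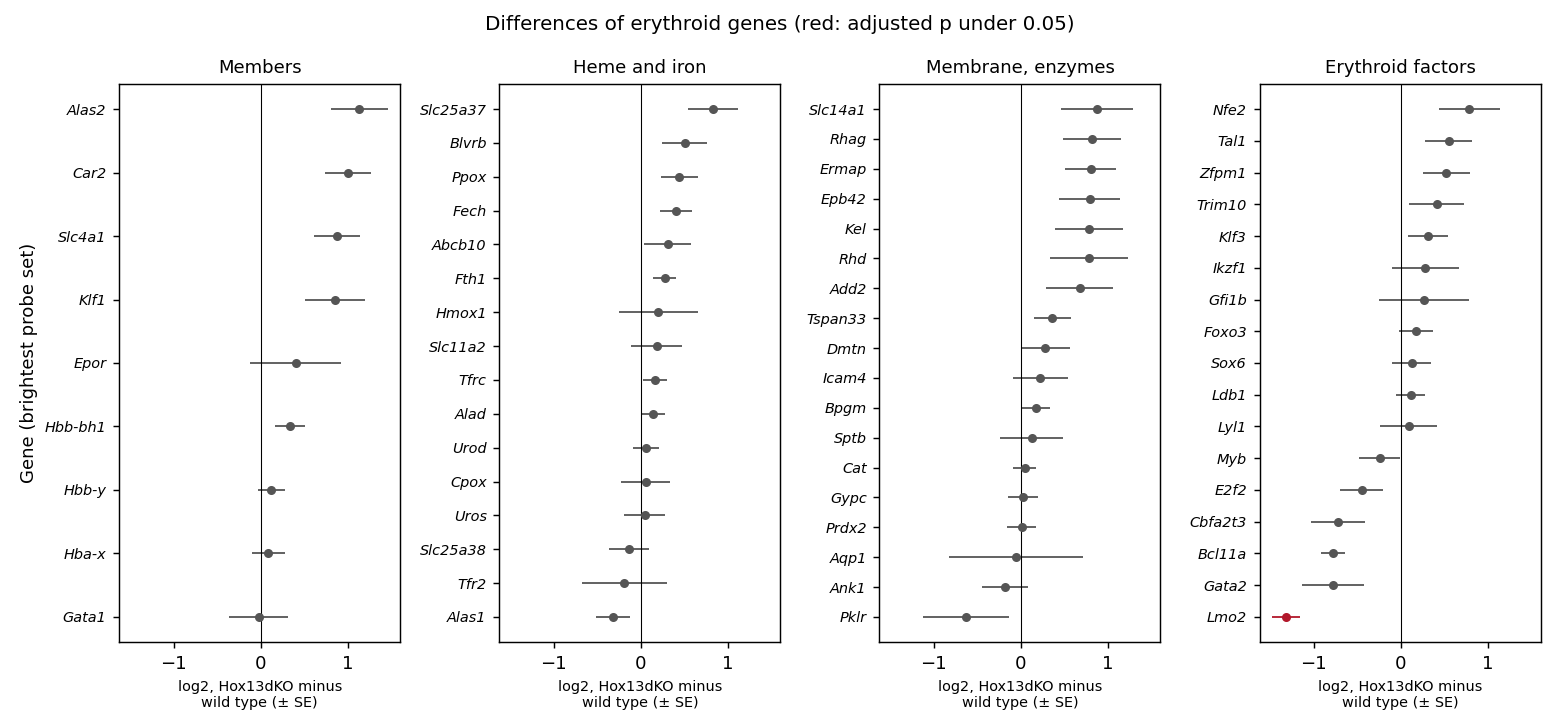
Log2 difference, Hox13dKO minus wild type, with its SE (bars) for the 9 members and 3 lists of further erythroid genes, by brightest probe set. Alas2, Car2, Slc4a1 and Klf1 lie near 1, the globins near 0, and Lmo2 at -1.31 is the single red point, past an adjusted p of 0.05.

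Other blood and vessel cells of the limb bud were read by their markers on the same arrays. Platelet genes had a median difference of 0.03 with 0 of 8 free of overlap, and their summed signal was 3594 and 2526 in Hox13dKO against 2997 and 3618 in wild type. Pf4 read 1625 and 1147 against 1473 and 1779, and Itga2b 376 and 327 against 278 and 390, so no defining platelet marker separated the groups. Macrophage genes had 0 of 14 past and a median of 0.45, with 8 of 14 free of overlap on the high side (17.1% of all genes) and 0 on the low side (20.1%). Their summed signal was 3182 and 3196 against 2214 and 2486. Among them C1qb differed by 0.50 ± 0.25 and Mrc1, a scavenger receptor, by 1.30 ± 0.24 (adjusted p = 0.119, past the threshold in 5 of 16 alternative settings), while Csf1r was at -0.03 ± 0.19.

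Endothelial genes had 0 of 18 past and a median of 0.20, with 7 free of overlap on the high side (17.1% of all genes), 2 on the low side (20.1%) and summed signals of 8480 and 9646 in Hox13dKO against 7364 and 7847 in wild type. Sox18, a factor of vessel cells, read 922 and 1078 against 527 and 553 (0.88 ± 0.18, adjusted p = 0.162). Cdh5 differed by 0.77 ± 0.22 without overlap. Pecam1 differed by 0.43 ± 0.27 with overlap, at 475 and 643 in Hox13dKO against 333 and 508 in wild type. Summed macrophage and endothelial signals were thus higher on both Hox13dKO arrays, and summed platelet signals overlapped. The summed signal of the 9 members, in which the globins weigh most, overlapped as well. It was 99672 and 112075 in Hox13dKO against 78232 and 102877 in wild type. Of the lists' genes, 9 of 18 endothelial and 8 of 14 macrophage genes were lowest in wild type replicate 1, against 24.5% of all genes tested. Limb ectoderm genes had 0 of 10 past and a median of 0.20, with 3 free of overlap above and 3 below. Among them Krt5 was at 0.53 ± 0.24, Krt8 at -0.61 ± 0.21, Krt14 at -0.05 ± 0.16 and Epcam at 0.14 ± 0.22. Limb mesenchyme genes, 0 of 10 past, had a median of -0.22, with 2 positive and 8 negative differences, 1 free of overlap above and 4 below. The part of blood or vessel content in the members' differences was not tested, and in pieces of tissue more red cells and more RNA per red cell cannot be told apart.

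**Figure D4:**
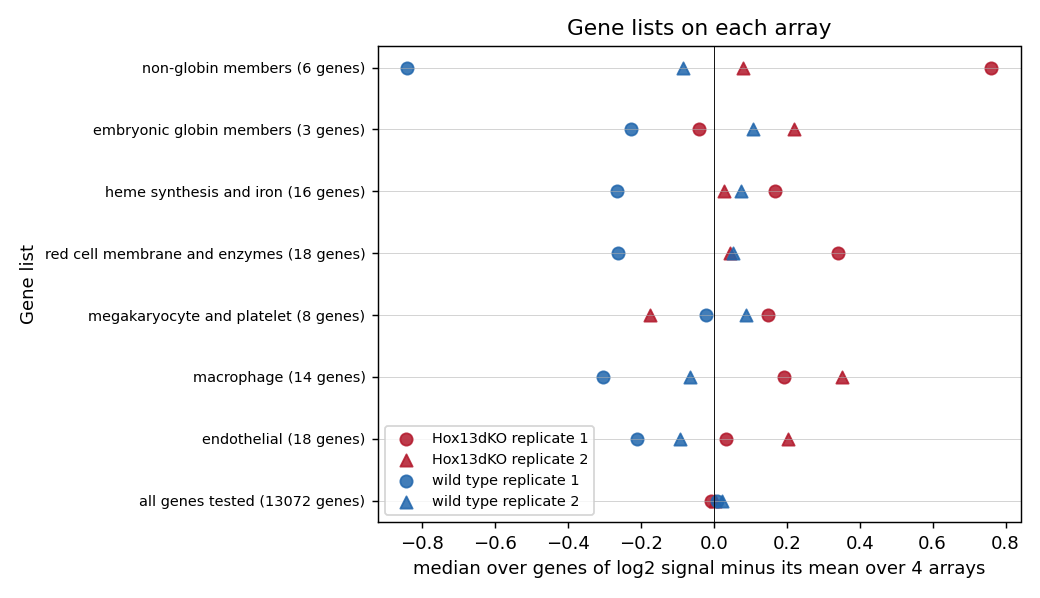
Median over the genes of a list of the log2 signal minus its mean over the 4 arrays (x axis), for 8 lists (rows), with the 2 Hox13dKO arrays in red and the 2 wild-type arrays in blue. The medians span 0.76 in Hox13dKO replicate 1 to -0.84 in wild type replicate 1 for the 6 non-globin members. For the 3 globins they span 0.22 to -0.23, and the medians over all 13072 genes tested lie within 0.03 of 0.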

How the data were processed

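Signal intensity per probe set was deposited by the authors on a linear scale for 2 Hox13dKO and 2 wild-type arrays. Per the submitters' processing notes it was made with MAS5 (version not given in the sources used here), which subtracts background using mismatch probes and scales each array; the 2% trimmed mean was 500 on all 4. Read depth does not apply to this assay, and the number of arrays limits the precision. Of 45101 probe sets 34958 had 1 gene symbol, 932 several and 9211 none, and 34754 of the first were found by gene ID in RefSeq (GRCm38.p6), used for names.

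Values under the 20th percentile of all signals (14.1) were raised to it, log2 was taken, and the 64 control probe sets were left out. Probe sets with a mean log2 signal at or above the 40th percentile (39.6 signal units) were tested, 27022 in all. Hox13dKO and wild type were compared by limma 3.58.1 in R 4.3.3 (lmFit, then two-sided moderated tests from eBayes with trend). P-values were adjusted by Benjamini-Hochberg across those 27022, and 0.05 was the limit. The fit had 2 residual degrees of freedom and 6.05 from the prior. Errors are SE of the log2 difference, n = 2 per group. For lists the brightest probe set of each gene was used. The steps were checked on simulated arrays. Promoters came from RefSeq, and figures were drawn with matplotlib 3.10.9.

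The members and gene lists were chosen with earlier results of these data known. Named genes are all members, up to 4 genes of the lowest p in each further list, genes past the threshold, fixed cell markers, Hoxa13 and Hoxd13, and the 5 nearest profiles. Other erythroid lists held genes without a usable probe set, which are not analysed here. Alternatives covered normalization, floor, filter, variance model, replicate block, probe set choice, threshold and leaving out each array.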

Additional observations from a re-analysis of the deposited data

How the results depend on the processing

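Of the 16 alternative settings, 14 gave 0 member probe sets past the threshold. The exceptions were 2 with the replicate number as a block (Car2, adjusted p = 0.0404, and 1 of the 3 Hbb-bh1 probe sets, 0.0493; its brightest was at 0.0723 and the other at 0.428) and 4 without wild type replicate 2. Nothing in the labels says that equal replicate numbers share a litter or day, and with 2 pairs this could not be settled; differences between replicates 1 and 2 correlated between the groups with r = 0.198 across probe sets. The median log2 difference of the members was 0.108 to 0.989 when an array was left out. Without cross-hybridising probe sets it was 0.626, over only the 6 genes whose brightest probe set remained. Hbb-bh1, Hbb-y and Slc4a1 were left out of that median, so it covers fewer genes than the main median. Their other tested probe sets remained in that setting, at 0.34 and 0.18 for Hbb-bh1, 0.05 for Hbb-y and 0.84 for Slc4a1. Over all probe sets the count of 56 became 214 after median centring, 0 with no filter (3159 at an unadjusted p under 0.05), 1 without the intensity trend, 418 with the replicate block, 95 with 1 probe set per gene, 111 at an adjusted p of 0.10, and 11 to 525 when an array was left out. The cause was not tested.

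With the replicate block Hemgn (adjusted p = 0.0361), Bcl11a (0.00459), Kit (0.0314), Sox18 (0.0206), Mrc1 (0.0148) and Prrx1 (0.0159) also passed. Bcl11a passed with 1 probe set per gene (0.0373), without wild type replicate 1 (0.0209) and at the limit of 0.10. Mrc1 passed after median centring (0.0473), with 1 probe set per gene (0.0457), and without wild type replicate 1 (0.0191) or 2 (0.0241). With wild type replicate 2 left out, the log2 differences were 0.97 for Hemgn and 0.92 for Sox18. C1qa, with signals of 129 and 128 in Hox13dKO against 71.5 and 11.8 in wild type, was at 3.19 without wild type replicate 1. The wild-type array left in that fit was the one under the floor of 14.1, so the size of this difference was set by the floor.

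Signs of small differences turned. After quantile normalization Hba-x was at -0.0018 and an Hbb-y probe set at -0.024. After median centring Gata1 was at 0.011 and Csf1r at 0.0033. With an array left out, ranges that cross 0 were, for 1 Hbb-bh1 probe set -0.055 to 0.41 (the other 2 stayed at 0.108 to 0.557), Hba-x -0.12 to 0.29, Hbb-y -0.045 to 0.29, -0.085 to 0.31 and -0.18 to 0.27, Gata1 -0.32 to 0.27, Epor -0.46 to 1.25, Pf4 -0.50 to 0.0055, Ppbp -0.68 to 0.25, Itgb3 -0.091 to 0.86, Epcam -0.20 to 0.48, Itga2b -0.16 to 0.33, Csf1r -0.095 to 0.031 and Krt14 -0.13 to 0.039.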
